A study of Mus musculus with 2 samples.

Results

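Alx1, Alx4, Prrx1, Prrx2 and Shox2 encode paired-related homeodomain transcription factors and were taken by gene symbol, without a threshold on measured values, though earlier results of these data were known. They were 5 of 42462 genes with a symbol, and 19 of their transcripts were quantified. Their RNA was measured by total RNA-seq in the embryonic facial prominence, the tissue that forms the face, of B6NCrl mice. There were 2 pools, both collected at embryonic day 10.5 and both of male and female embryos, 69 in replicate 1 and 51 in replicate 2. The mice carried no labelled allele, transgene or treatment, and the series had 1 group, so there was no contrast between conditions. Each library started from 10 ng of RNA longer than 200 nt and contained spike-in RNA controls. Depth over all genes, in expected counts, was 40059176 for replicate 1 and 39531700 for replicate 2. The labels called the pools biological replicates, and spreads below are over n = 2 pools.

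A homeodomain is a small DNA-binding fold whose recognition helix lies in the major groove of DNA, and paired-related homeodomains often bind as dimers to sites made of inverted TAAT motifs. In the embryonic head these genes are known mainly from mesenchyme. Alx1 and Alx4 are known for the development of the frontonasal region and skull vault, Prrx1 and Prrx2 act partly redundantly in mesenchyme of the face and limbs, and Shox2 is known from palate, limb and the pacemaker region of the heart.

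The part of each gene that gives the family its name was read from GENCODE M21 transcript sequences on GRCm38 (the assembly also called mm10). The homeobox was 180 bases long, coded for 60 residues, and lay across exons 2 and 3 in each of the 5 genes. The stretch below is shown because it codes for the DNA-contacting recognition helix, homeodomain residues 42 to 58, and lets the 5 genes be compared base by base. Capitals mark the codon of residue 50, a position known to bear on which DNA bases are preferred. All 5 genes carried a glutamine codon there.
Alx1: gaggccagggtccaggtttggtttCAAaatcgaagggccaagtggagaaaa
Alx4: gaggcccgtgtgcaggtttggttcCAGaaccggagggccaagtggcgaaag
Prrx1: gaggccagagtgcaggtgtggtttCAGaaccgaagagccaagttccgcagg
Prrx2: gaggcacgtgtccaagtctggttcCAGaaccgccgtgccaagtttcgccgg
Shox2: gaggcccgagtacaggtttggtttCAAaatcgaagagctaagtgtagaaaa
Each stretch of 51 bases crosses the junction of exons 2 and 3. The genomic spans are chr10:103022270-103025149 (minus strand) for Alx1, chr2:93668651-93675331 (plus strand) for Alx4, chr1:163257907-163261854 (minus strand) for Prrx1, chr2:30878577-30879527 (plus strand) for Prrx2 and chr3:66975875-66978200 (minus strand) for Shox2. Over the whole homeobox, Prrx1 and Prrx2 shared 58 of 60 residues but only 142 of 180 bases. Alx1 and Alx4 shared 55 residues and 138 bases. In the stretch shown, the Prrx pair agreed at 39 of 51 bases and the Alx pair at 42, while Alx1 and Shox2 agreed at 45. The other 8 pairs shared 39 to 42 residues and 107 to 125 bases, so the homeodomains fell into an Alx pair, a Prrx pair and Shox2 apart from both.

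All 5 genes were detected, that is, at a TPM of 1 or more (a measure of relative transcript abundance corrected for length) in both libraries. For scale, 12494 of 21474 named protein coding genes (58.2%) were detected, with a median of 20.1 TPM. The members ran from 107 TPM for Prrx1 to 8.07 TPM for Shox2, a 13.3-fold range, and 3 of the 5 lay above that median. Summed over the 5 genes the level was 289 TPM in replicate 1 and 260 TPM in replicate 2. The Prrx genes held most of it, with 63.1% in replicate 1 and 71.6% in replicate 2.

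Prrx1 (ENSMUSG00000026586, chr1:163245119-163313710, minus strand) was measured at 108 TPM in replicate 1 and 107 TPM in replicate 2. Its mean of 107 ± 1.08 TPM exceeded the level of 87.6% of detected protein coding genes. It rested on 11860 and 11782 expected counts, the most of the 5 genes. Its paralogue Prrx2 (ENSMUSG00000039476, chr2:30834972-30881251, plus strand) stood at 74.4 TPM in replicate 1 and 79.5 TPM in replicate 2, a mean of 77.0 ± 3.57 TPM. Both Prrx genes were therefore close to equal in the 2 pools.

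Alx1 (ENSMUSG00000036602, chr10:102998707-103030215, minus strand) was the member with the widest spread. It stood at 78.8 TPM in replicate 1 and 47.8 TPM in replicate 2, with a mean of 63.3 ± 21.9 TPM. The deposited intervals around its level, whose nominal level no source used here states, ran from 75.0 to 79.3 TPM and from 45.2 to 48.5 TPM and did not overlap. Alx4 (ENSMUSG00000040310, chr2:93642384-93681339, plus strand) was measured at 18.9 TPM in replicate 1 and 19.0 TPM in replicate 2. The 2 Alx genes thus differed both in level and in how alike the pools were, since the coefficient of variation was 34.6% for Alx1 and 0.187% for Alx4. Shox2 (ENSMUSG00000027833, chr3:66971727-66981771, minus strand) was lowest, at 9.11 TPM in replicate 1 and 7.04 TPM in replicate 2, a mean of 8.07 ± 1.46 TPM. Its deposited intervals, 8.57 to 10.7 TPM and 6.62 to 8.71 TPM, overlapped slightly. It rested on 624 and 465 expected counts and lay above 28.3% of detected protein coding genes.

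**Figure D1:**
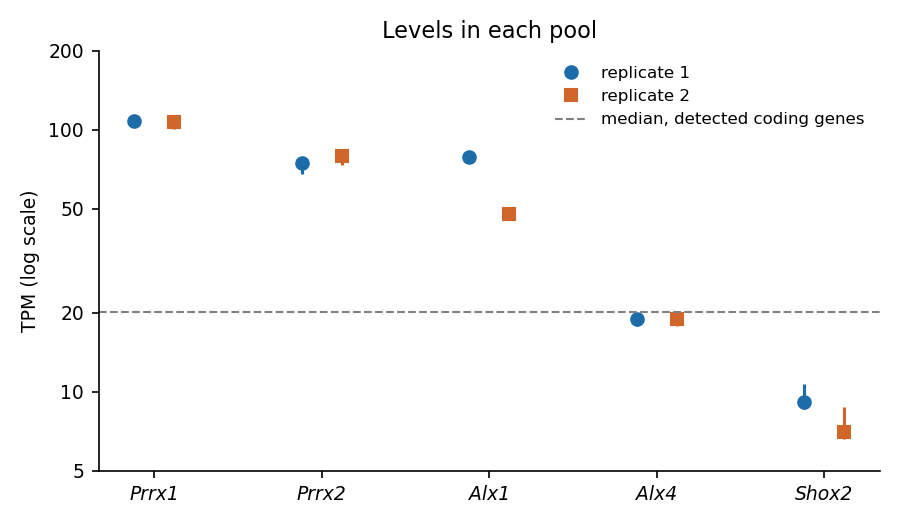
Level of each gene in TPM (logarithmic axis; dashed line, the median of 20.1 TPM over detected coding genes) in replicate 1 and replicate 2, with deposited intervals as bars; these surround a posterior mean, so a point need not be centred in its bar, and narrow bars are hidden by the points. The 2 points coincide for Prrx1 and Alx4 and stand apart for Alx1 (78.8 and 47.8 TPM).

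The order of the levels was compared over all 10 pairs, on log2(TPM + 0.1), with a 95% interval from the replicate spread of the 200 genes nearest in level. A pair was counted as differing when that interval excluded 0 and the sign was the same in replicate 1 and replicate 2. No p-value is given, since an exact permutation test of 2 against 2 values cannot go below 0.33. By this rule 9 of the 10 pairs differed. The exception was Prrx2 over Alx1. Its difference was 0.33 on the log2 scale (95% interval 0.13 to 0.52), but it was -0.08 in replicate 1 and 0.73 in replicate 2, so these 2 neighbours in the order were not separated. Prrx1 exceeded Prrx2 by 0.48 (0.33 to 0.63), which is 1.39-fold, with 0.54 in replicate 1 and 0.42 in replicate 2. Alx1 exceeded Alx4 by 1.69 (1.44 to 1.94), 3.23-fold, and Alx4 exceeded Shox2 by 1.23 (0.87 to 1.59), 2.35-fold. The largest difference among the pairs was Prrx1 over Shox2, 3.73 (3.40 to 4.05) or 13.2-fold.

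The interval borrows its spread from other genes, which matters for Alx1. The replicate SD on the log2 scale was 0.509 for Alx1 itself, against 0.114 for the genes nearest to it in level. Both libraries accordingly lay outside the interval for Prrx1 over Alx1 (0.45 and 1.15), for Prrx2 over Alx1 and for Alx1 over Alx4 (2.05 and 1.33). For the other 4 genes the 2 spreads were 0.015 and 0.075 (Prrx1), 0.067 and 0.077 (Prrx2), 0.003 and 0.138 (Alx4) and 0.260 and 0.223 (Shox2), own spread first.

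**Figure D2:**
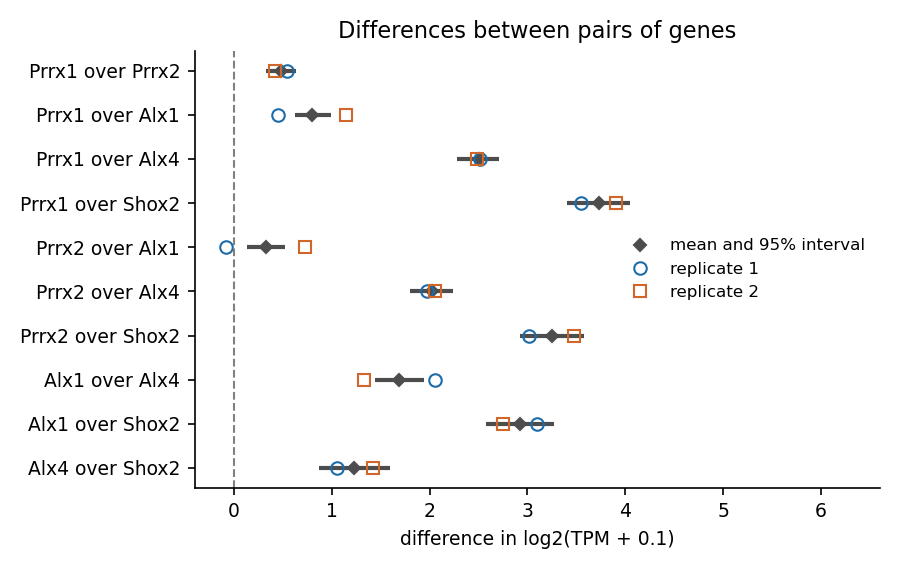
Difference in log2(TPM + 0.1) for the 10 pairs of genes, as mean and 95% interval (diamond and bar) with each replicate as an open symbol. Only Prrx2 over Alx1 has replicates on both sides of 0, and the 3 pairs with both replicates outside the bar all involve Alx1.

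How far the pools differed was then read from expected counts after TMM scaling. A gene was called where they stood at least 1.5-fold apart; with 1 library on each side there is no test. Alx1 was the 1 member called, 1.62-fold higher in replicate 1 (log2 ratio of replicate 2 over replicate 1, -0.69). Of the 14035 genes that averaged 50 or more counts, 374 (2.66%) were that far apart in the direction of replicate 1 and 276 (1.97%) in the direction of replicate 2. Shox2 was 1.31-fold higher in replicate 1 (log2 ratio -0.38) and was not called, and 9.68% of genes were at least as far apart. Prrx2 had a log2 ratio of 0.12, Alx4 of 0.04 and Prrx1 of 0.03, so these 3 stood within 1.09-fold. Of the genes compared, 40.6% were at least as far apart as Prrx2, 77.8% as Alx4 and 82.0% as Prrx1. In a whole tissue, fewer cells of a type and less RNA per cell cannot be told apart.

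Several regional genes stood beside Alx1 in this respect. Among 12 regulators of the frontonasal and maxillary region, 3 were called higher in replicate 1 and 0 in replicate 2, and 11 of the 12 had a higher value in replicate 1 at any size, with a median log2 ratio of -0.27. The 3 were the paired box gene Pax7 (2.19 and 1.23 TPM, 1.64-fold), the paired box gene Pax9 (8.35 and 5.27 TPM, 1.61-fold) and the homeobox gene Six2 (13.2 and 8.45 TPM, 1.52-fold). Among 11 regulators of the mandible, Gsc was higher in replicate 1 (17.3 and 9.84 TPM, 1.71-fold) and Hand1 in replicate 2 (18.1 and 41.8 TPM, 2.36-fold). Of these 11, 9 had a higher value in replicate 1 at any size, and their median log2 ratio was -0.15. A higher value in replicate 1 was also counted in 8 of 12 other paired-class homeobox genes and in 11 of 16 genes linked to the members. The median log2 ratio over all genes compared was 0.006, but their share with a higher value in replicate 1 at any size is not given here. These lists were chosen with earlier results of these data known and overlap, since Gsc and Hand2 each stand in more than 1 of them.

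Markers of what else the dissected tissue could hold also moved. Of 6 heart markers, the 4 with enough counts were all called higher in replicate 2 (Myh7 5.24-fold, Myh6 5.23-fold, Myl7 4.39-fold and Tnnt2 4.14-fold). The other 2 had too few counts for a ratio and were not higher there. Nkx2-5 had a lower level in replicate 2, and Hcn4 had the same level in both pools (0.160 TPM). The summed level of all 6 was 7.17 TPM in replicate 1 and 28.9 TPM in replicate 2. Of 7 neural tube and hindbrain markers 3 were called higher in replicate 2 (Hoxb1 5.85-fold, Hoxb2 2.88-fold and Hoxa2 1.92-fold), with sums of 21.4 and 40.3 TPM. The skeletal muscle markers Myog and Myod1 were called higher in replicate 1, with sums over their 5 markers of 43.6 and 41.2 TPM. The 8 mesenchymal markers, among them Twist1 and Pdgfra, were all detected, summed to 1298 and 1274 TPM, and had 0 called, as had the 8 ectodermal markers (341 and 349 TPM), the 6 neuronal markers (499 and 511 TPM), the 6 endothelial markers (177 and 173 TPM) and the 5 erythroid markers (10705 and 9678 TPM). Of 7 limb markers none was detected and 4 had no counts, while Tbx5 was called 1.80-fold higher in replicate 2 (0.380 and 0.690 TPM). The part of these markers in the Alx1 and Shox2 values was not tested.

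**Figure D3:**
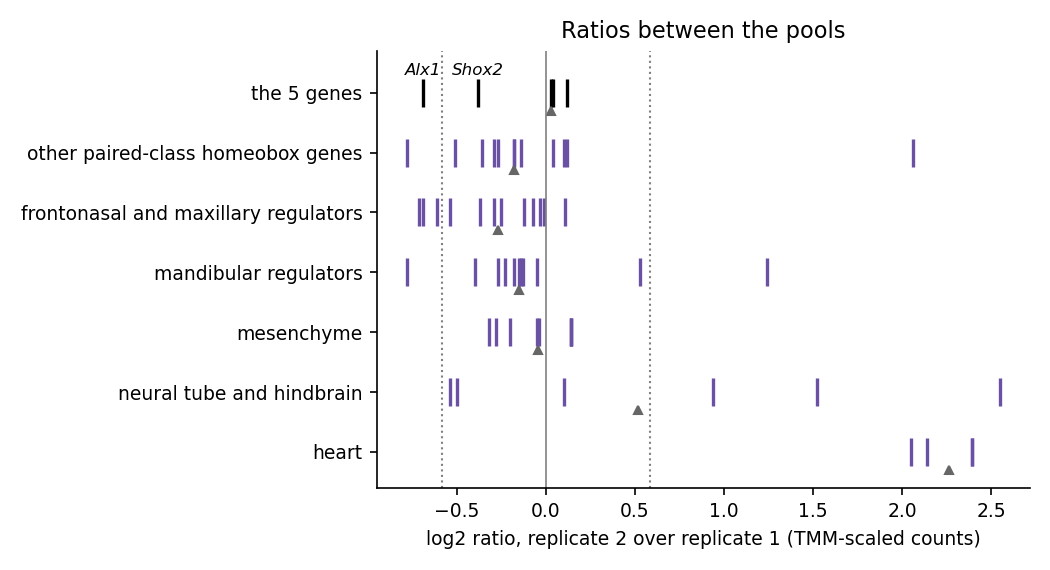
Log2 ratio of replicate 2 over replicate 1 on TMM-scaled counts, 1 tick per gene, for the 5 genes (black) and for 3 gene lists and 3 marker lists (purple), with a triangle at each row's median and dotted lines at the 1.5-fold limits. Alx1 (-0.69) lies beyond the lower limit and Shox2 (-0.38) inside it, while the 4 heart markers with enough counts lie far to the right.

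The annotated transcripts of each gene were described next, as deposited shares of the gene's level. Replicate 1 and replicate 2 had the same leading transcript for all 5 genes, as had 7262 of 7738 genes (93.8%) with a mean level of at least 5 TPM and at least 2 transcripts. Of the 19 transcripts 14 were protein coding, and all 14 held the whole homeobox in their coding sequence.

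Prrx1 was spread over more forms than the other 4 genes, with 4 transcripts above 15%. Prrx1-201, which codes for 245 residues, held 30.3% in replicate 1 and 32.0% in replicate 2 (33.4 ± 0.955 TPM). Prrx1-204, coding for 200 residues, held 23.4% and 23.5% (25.2 ± 0.219 TPM), and Prrx1-202, coding for 217 residues, held 15.8% and 15.4% (16.7 ± 0.438 TPM). The order of these 3 coding forms was the same in both libraries. Counted among coding forms alone, Prrx1-201 held 43.6% and 45.1%, Prrx1-204 33.7% and 33.1% and Prrx1-202 22.7% and 21.8%.

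The 3 coding forms of Prrx1 share their first 599 coding bases, homeobox included, and differ only in how they end. The ends are shown because these are the bases by which the forms are told apart in coding sequence, with the stop codon in capitals (chr1, minus strand, GRCm38).
Prrx1-201: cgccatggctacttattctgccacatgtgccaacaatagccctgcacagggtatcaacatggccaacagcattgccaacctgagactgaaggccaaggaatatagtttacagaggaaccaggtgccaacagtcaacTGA
Prrx1-202: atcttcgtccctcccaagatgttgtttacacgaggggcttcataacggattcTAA
The end of Prrx1-201 lies in its exon 4 at chr1:163248258-163248396 and adds 136 coding bases before the stop. That of Prrx1-202 lies in another exon 4 at chr1:163253994-163254048 and adds 52. Prrx1-204 instead reads on from exon 3 and stops after 1 more base (chr1:163257757-163257760). The long ending, that of Prrx1-201, is known for a conserved motif near the C terminus of aristaless-type proteins, the OAR domain.

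The remaining Prrx1 RNA was mostly Prrx1-205, annotated as a processed transcript with no coding sequence. It held 28.8% in replicate 1 and 26.9% in replicate 2 (29.9 ± 1.71 TPM), second to Prrx1-201. The share is corrected for length. That form is 1335 bases long and rested on 1019 and 934 expected counts, fewer than Prrx1-204 or Prrx1-202. It carried the bases of the homeobox but lacked the first exon of Prrx1-201. Prrx1-203, a retained intron form, held 1.74% and 2.22%. The coding forms together came to 75.0 TPM and 75.5 TPM.

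**Figure D4:**
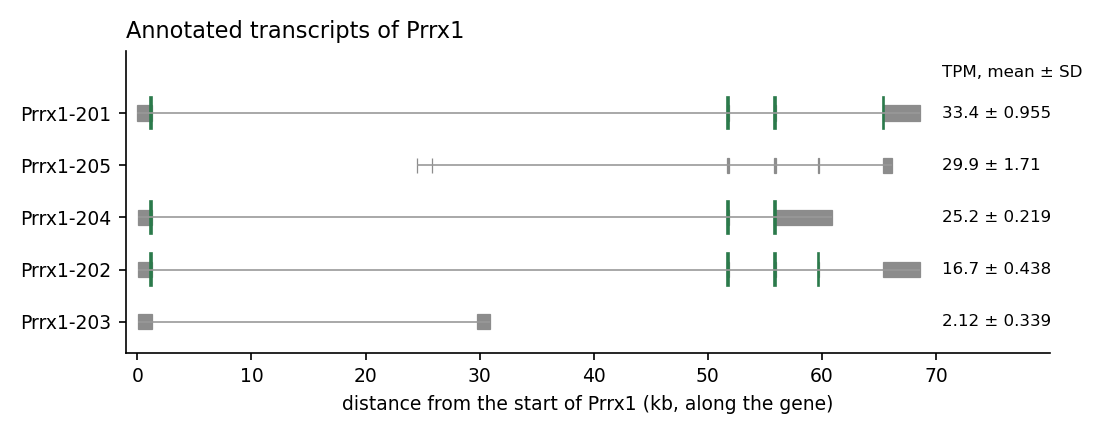
Exons of the 5 annotated Prrx1 transcripts, to scale, by distance in kb along the gene, with coding parts tall and green, other parts grey, and the mean TPM ± SD over 2 pools at the right. The coding forms share their first 3 coding stretches and part after them, while Prrx1-205 (29.9 ± 1.71 TPM) starts inside the first intron of the coding forms.

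Prrx2 also had much of its level in forms without coding sequence. The full-length form Prrx2-201, coding for 247 residues, held 50.6% in replicate 1 and 53.5% in replicate 2. The retained intron forms Prrx2-203 (19.3% and 23.7%) and Prrx2-204 (16.1% and 15.6%) came next. Prrx2-202, which starts from another first exon (chr2:30834972-30835252) and codes for 175 residues, held 14.0% and 7.15%, a change of 6.87 percentage points and the largest among the 19 transcripts. Its levels of 10.4 and 5.68 TPM had deposited intervals of 5.93 to 14.9 TPM and 2.03 to 11.7 TPM, which overlapped. The coding forms of Prrx2 together came to 48.1 TPM and 48.2 TPM, against 75.0 TPM and 75.5 TPM for Prrx1.

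Forms without coding sequence made up 37.4% of Prrx2 and 29.8% of Prrx1, as means over the pools, but 0.240% of Alx1. For comparison, every form not annotated as protein coding was counted, with or without a coding sequence. Over 6129 protein coding genes with such a form and a mean level of at least 5 TPM the median was 13.1%. Prrx2 lay above 79.9% of them, Prrx1 above 73.1% and Alx1 above 4.73%.

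The Alx genes were each carried by 1 form. Alx1-201, coding for 326 residues, held 92.7% in both replicates, and Alx1-203, which has the same coding sequence, held 7.32% and 6.86%. The lower level of Alx1 in replicate 2 was therefore found in its coding forms, which came to 78.8 TPM and 47.6 TPM, while the shares moved by at most 0.480 percentage points. Alx4-201, coding for 399 residues, held 97.1% and 96.5%, and Alx4-202, coding for 325 residues, the remainder.

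Shox2 was carried mainly by Shox2-203, with 82.5% in replicate 1 and 83.5% in replicate 2. That annotated form is incomplete at its 5′ end and has no start codon, so its 239 coding residues are a part of the protein. Its share was lower by the posterior mean, 74.0% and 71.9%, an estimate that gave 3.60% to 5.98% to the forms Shox2-204 and Shox2-205, both listed at 0 otherwise. Shox2-201, with 331 residues, held 15.2% and 9.40% on 109 and 51.9 expected counts, and Shox2-202, with 190 residues, held 2.28% and 7.05%. The order of the 3 listed forms was the same in both libraries, with few counts behind the smaller ones.

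The Shox2 forms differ in annotated coding length, with 993 bases in Shox2-201 against 719 in Shox2-203 and 570 in Shox2-202. Among the differences is a stretch that lies inside the coding sequence of Shox2-201 alone. It is shown because it codes for 12 residues, keeps the reading frame and is absent from the 4 other forms, which held 84.8% of Shox2 in replicate 1 and 90.6% in replicate 2. It lies in exon 5 at chr3:66973908-66973943 (minus strand, GRCm38).
Shox2-201: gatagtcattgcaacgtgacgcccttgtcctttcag

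**Figure D5:**
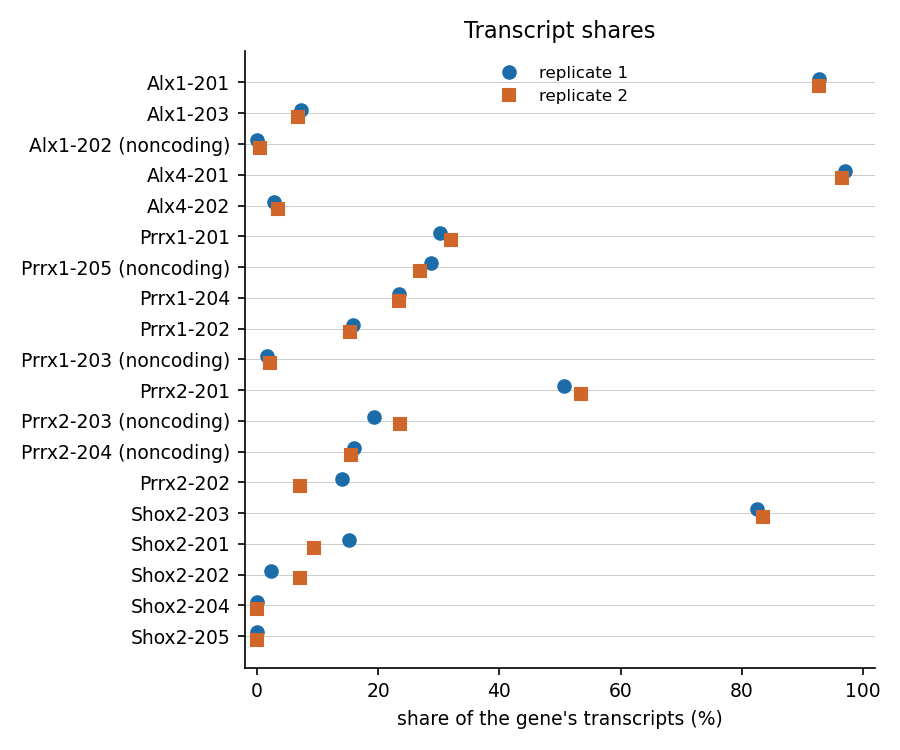
Share of each gene's transcripts in percent (horizontal axis) for the 19 annotated transcripts, with replicate 1 as a circle and replicate 2 as a square; noncoding marks forms without coding sequence. Alx1-201, Alx4-201 and Shox2-203 each lie above 82%, while the highest Prrx1 form is at 30.3% and 32.0%.

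The genes were next set beside relatives and partners from gene lists. Of 20 other paired-class homeobox genes 19 were measured and 12 detected, with a median of 2.54 TPM, against a median of 63.3 TPM for the 5 members. Pitx1, known from the mandible and hindlimb, stood highest of them at 40.8 ± 5.42 TPM. Gsc (13.6 ± 5.25 TPM) and Otx2 (11.4 ± 1.41 TPM) were also among the higher ones, and all 3 were below Prrx1, Prrx2 and Alx1. Isx had no counts. Gsc was called higher in replicate 1, as given above.

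Of 18 genes linked to the members in other work 14 were detected, with a median of 19.6 TPM. The cartilage regulator Sox9 was highest at 92.5 ± 3.18 TPM, between Prrx1 and Prrx2. The homeobox gene Meis2 followed at 58.4 TPM. It was below Alx1 in replicate 1 (56.7 against 78.8 TPM) and above it in replicate 2 (60.1 against 47.8 TPM). The heart genes Nkx2-5 (0.520 TPM) and Hcn4 (0.160 TPM), linked to Shox2 in other work, were the lowest. Between the pools 2 of the 16 with enough counts were called, both higher in replicate 1. They were Tnc, the tenascin C gene linked to Prrx1 in other work (5.99 and 2.39 TPM, 2.44-fold), and the bone regulator Runx2 (1.72 and 0.44 TPM, 3.22-fold). The median log2 ratio of the 16 was -0.10.

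With 2 libraries, likeness of pattern could be read only as the Euclidean distance between log2(TPM + 0.1) values. Among 111 list and marker genes the nearest to each member was Dlx5 for Alx1 (0.39 on the log2 scale; 77.5 and 62.8 TPM), Ptch1 for Alx4 (0.03; 19.1 and 19.3 TPM), Sox9 for Prrx1 (0.30; 94.8 and 90.3 TPM), Snai1 for Prrx2 (0.04; 72.9 and 78.4 TPM) and Tbx2 for Shox2 (0.22; 9.19 and 8.24 TPM). Next came Nr2f2 and Elavl4 for Alx1, Cdh1 and Bmp4 for Alx4, Nefm and Krt18 for Prrx1, Krt8 and Egfl7 for Prrx2, and Gli1 and Grhl2 for Shox2. Alx1 had the farthest nearest gene of the 5. Over 2 libraries this distance mainly compares levels.

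Overlapping genes limit some of these values, because no source used here says whether reads were counted by strand. Rsrc1, on the opposite strand, shares 153 exonic bases with Shox2 and stood at 37.6 and 34.7 TPM, above Shox2 itself. If strand was ignored in counting, reads of the 2 genes may not have been told apart there. Gm17028, a long noncoding RNA gene on the strand of Alx1, shares 243 exonic bases with Alx1 in the GENCODE M21 annotation but 0 with the 3 Alx1 transcripts quantified, and stood at 2.99 and 1.13 TPM. Inside the Prrx1 gene lie Gm26523 on the same strand (44.9 and 45.8 TPM), Gm20471 on the opposite strand (5.01 and 5.98 TPM) and Gm37644 (4.69 and 5.51 TPM), none sharing exonic bases with it. Ext2 overlaps part of Alx4 on the opposite strand at 64.2 and 61.4 TPM and shares 0 exonic bases. Of genes lying outside the members, Asb6 (45.4 and 46.6 TPM) and Ptges (8.43 and 8.44 TPM) flank Prrx2 at 4.64 kb and 8.22 kb, Gorab (24.5 and 23.8 TPM) lies 71.2 kb from Prrx1, and Lrriq1 (0.540 and 0.410 TPM) lies 15.8 kb from Alx1.

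Promoters of Prrx1, Prrx2 and Shox2 were matched in the RefSeq table (GRCm38.p6; 250 bases before to 50 after the start), while Alx1 and Alx4 were not. The paired-class dimer site TAATNNNATTA, which reads the same on both strands, was in none of the 3, and in 0.487% of 32851 promoters. The TATA box TATAAA, on either strand, was found in Shox2 alone and in 13.6% of all promoters. It stood 203 bases before the annotated start, at chr3:66981960-66981983 (minus strand), and is shown in capitals with its flanks since it was the 1 match found.
Shox2: tttaggaagTATAAAtagtgagac
A match of these letters is a description of the sequence, and no match says only that the letters were not in these windows.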

How the data were processed

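Total RNA of 2 pools of facial prominence was analysed from tables the authors deposited per library, quantified on mm10 with GENCODE M4 per the file headers and labels; no source used here names the aligner or quantifier. Expected counts were deposited unnormalized; TPM and FPKM were scaled by the authors for length and depth; transcript shares were deposited as percent by the authors. Genes held 40059176 and 39531700 expected counts; features naming no gene held 3.46% and 3.94% and were left out. The labels number the libraries as biological replicates; chi-square over genes was 8.94 per degree of freedom, so they are not 1 library deposited again, though this does not show independent tissue.

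Symbols and coordinates came from GENCODE M21. Pair intervals used 1.96 standard errors. Pool ratios used TMM factors (edgeR 4.0.16, R 4.3.3), a prior count of 2 and expected counts rounded to whole numbers. Size factors of DESeq2 1.42.0 were an alternative. The scripts (Python 3.11.15) were tested on simulated data. Named genes were all members and their transcripts, up to 4 highest and 2 lowest of each list, those at least 1.5-fold apart and the nearest in level; some genes this takes are not reported here. Members and lists were chosen with earlier results of these data known.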

Additional observations from a re-analysis of the deposited data

How the results depend on the processing

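The count of differing pairs, 9 of 10, was also 9 with posterior mean TPM, FPKM, pseudocounts of 1 and 0.01 and a spread over 1000 genes, and 9 to 10 when 1 replicate was left out. Prrx2 over Alx1 ranged from -0.08 without replicate 2 to 0.73 without replicate 1. The count of members called between the pools was 1 under library size, DESeq2 size factors, posterior mean counts, TPM and other count filters. It was 2 with spike-in totals, where Shox2 passed at a log2 ratio of -0.60 and the median gene moved to -0.21, and 0 at a threshold of 2-fold; the cause of the spike-in shift was not tested. Posterior means lowered Shox2-203 from 83.0% to 73.0% and Alx1-201 from 92.7% to 91.7%, with no change of leading transcript. A pool ratio needs both libraries, so no replicate could be left out of it. No paired analysis was possible because the series has 1 group. Low counts limit the shares of the lesser Shox2 transcripts.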
